A study of Homo sapiens with 62 samples.

Results

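Chemerin (gene RARRES2), its receptors CMKLR1 and CCRL2, and the formyl peptide receptors FPR1, FPR2 and FPR3 form a set of 6 genes, described here across 62 RNA-seq libraries in 16 groups. All 6 were found by gene name in every count table, among 58735 listed genes in the tables of A2058, HCT116, AGS and MCF10A and 48162 in those of A2780. The members were chosen by their measured counts in these libraries: the set was put together because RARRES2, CMKLR1 and FPR2 stand near 0 in parental A2058 melanoma cells and high in A2058 clones that lost a copy of chromosome arm 1q. Their values in that contrast are therefore given as a description with no test, and the same holds for the other members there.

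Chemerin is a secreted chemoattractant and adipokine that is made as an inactive precursor. Serine proteases trim its C terminus to activate it, and other proteases and carboxypeptidases trim it further or differently. CMKLR1 is a Gi-coupled receptor that signals on binding active chemerin, GPR1 is a further chemerin receptor, and CCRL2 is an atypical receptor that binds chemerin and presents it without signalling of its own. The formyl peptide receptors are Gi-coupled receptors best known on neutrophils and monocytes, where FPR1 senses bacterial and mitochondrial formylated peptides, FPR2 responds to ligands as different as serum amyloid A and annexin A1, and FPR3 has a narrower set of ligands. In skin and melanoma, chemerin is known as a signal that attracts CMKLR1-bearing leukocytes.

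The groups came from 5 established cell lines. A2058 is a melanoma line with gains of 1q, 7p and 8q, sequenced as WT (4 libraries), 1q-loss (4 libraries, 2 clones), 7p-loss (6 libraries, 3 clones) and 8q-loss (4 libraries, 2 clones), and all its loss clones were made with ReDACT-CO, one of a family of CRISPR-based ways to remove a chromosome arm, aimed at the named arm. HCT116, a colorectal cancer line with a gain of 8q, was sequenced as WT (2 libraries) and ReDACT-CO 8q-loss (4 libraries, 2 clones). AGS, a gastric cancer line with a gain of 1q, was sequenced as WT (1 library), as TK+ cells that keep the gain and carry a TK integrant (2 clones, 1 library each), and as 1q-loss (5 clones, 1 library each, 4 by ReDACT-NS and 1 by ReDACT-CO). A2780, an ovarian cancer line with a gain of 1q whose tables use GRCh37 coordinates, was sequenced as WT (2 libraries), TK+ (2 libraries) and ReDACT-NS 1q-loss (6 libraries, 3 clones). MCF10A, a line of breast epithelial cells, was sequenced as WT (2 libraries) and 1q-loss (8 libraries, 4 clones, with 6 libraries by ReDACT-TR and 2 by ReDACT-CO). A parallel set of hRas WT (2 libraries) and hRas 1q-loss (8 libraries, 4 clones) expresses hRASV12, an activated form of HRAS. The MCF10A 1q-loss clones are, like those above, clones without a 1q gain. The loss clones each grew from 1 cell, so libraries of a clone are not independent, and p-values over libraries measure a spread that is in part technical.

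Library totals ran from 15042068 to 30984036 counts, and levels are given in CPM, counts scaled to library size, after TMM scaling within a line. Lines were scaled separately, so levels set across lines are descriptions. A gene is said to have risen, fallen or been called where its Benjamini-Hochberg adjusted p was under 0.05. The melanoma label of A2058 was checked with 6 melanocyte markers (SOX10, MITF, PMEL, MLANA, TYR and DCT), whose summed level was 2484 to 4395 CPM in WT. The labels name no other cell type, and 15 leukocyte markers summed to 4.29 to 6.001 CPM in A2058 WT. In the count tables RARRES2 (ENSG00000106538) lies at chr7:150338317-150341674 (GRCh38, minus strand), CMKLR1 (ENSG00000174600) at chr12:108288044-108339341 (minus) and CCRL2 (ENSG00000121797) at chr3:46407163-46412997 (plus). FPR1 (ENSG00000171051, chr19:51745172-51804110, minus), FPR2 (ENSG00000171049, chr19:51752026-51770526, plus) and FPR3 (ENSG00000187474, chr19:51795163-51826189, plus) are neighbours. No member lies on an arm that was removed. The span of FPR1 overlaps those of FPR2 and FPR3 on the other strand, but GENCODE 29 gives the 3 genes 0 shared exonic bases. Their coding sequences are alike (FPR1 and FPR2 identical at 76.6% of aligned bases, FPR1 and FPR3 at 71.2%, FPR2 and FPR3 at 81.5%), with a longest identical run of 63 bases between FPR2 and FPR3, so a few reads could be shared between them.

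The 250 bases before the RefSeq transcript start (GRCh38.p14) are shown for the 4 members that were high in A2058 1q-loss, so that the promoters of genes that moved together can be read side by side. Capitals mark matches, on either strand, to 6 motifs: the nuclear receptor element AGGTCA, as bound by retinoid receptors, the AP-1 sites TGAGTCA and TGACTCA, the M-box TCATGTG and TCACGTG bound by MITF-type factors, the TATA box TATAAA, the box named for its letters CCAAT and the GC box GGGCGG.
RARRES2, chr7:150341630-150341879, minus: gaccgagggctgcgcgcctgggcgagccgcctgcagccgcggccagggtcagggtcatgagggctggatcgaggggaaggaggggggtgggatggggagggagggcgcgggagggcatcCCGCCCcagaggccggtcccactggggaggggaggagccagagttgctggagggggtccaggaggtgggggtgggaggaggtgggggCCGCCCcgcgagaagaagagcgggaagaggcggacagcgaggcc
CMKLR1, chr12:108320643-108320892, minus: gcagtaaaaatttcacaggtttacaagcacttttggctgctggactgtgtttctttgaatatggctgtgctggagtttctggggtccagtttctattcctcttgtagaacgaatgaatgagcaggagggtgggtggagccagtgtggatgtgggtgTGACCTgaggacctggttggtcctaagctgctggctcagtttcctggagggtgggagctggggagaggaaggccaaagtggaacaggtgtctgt
FPR1, chr19:51751879-51752128, minus: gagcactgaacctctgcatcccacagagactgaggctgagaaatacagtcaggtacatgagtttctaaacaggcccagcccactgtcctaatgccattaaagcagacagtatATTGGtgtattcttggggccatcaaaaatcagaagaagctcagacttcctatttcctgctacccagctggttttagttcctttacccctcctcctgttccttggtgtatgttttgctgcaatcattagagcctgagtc
FPR2 start 1, chr19:51760930-51761179, plus: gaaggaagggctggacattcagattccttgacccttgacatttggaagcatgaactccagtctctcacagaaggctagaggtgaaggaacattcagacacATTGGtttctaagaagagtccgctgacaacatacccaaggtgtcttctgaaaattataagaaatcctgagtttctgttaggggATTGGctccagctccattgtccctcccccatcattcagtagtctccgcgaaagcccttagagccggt
FPR2 start 2, chr19:51763139-51763388, plus: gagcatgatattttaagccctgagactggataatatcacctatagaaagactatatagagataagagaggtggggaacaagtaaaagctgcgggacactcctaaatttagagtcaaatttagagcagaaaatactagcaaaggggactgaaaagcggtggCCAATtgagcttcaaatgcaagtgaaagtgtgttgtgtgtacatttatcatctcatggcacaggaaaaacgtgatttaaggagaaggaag

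The RARRES2 window held 2 GC boxes and 18 CG dinucleotides, more than 63.2% of all 35116 RefSeq windows (median 11). The other windows were poor in CG, with 1 in CMKLR1, 0 in FPR1 and 4 and 3 in the FPR2 windows. CMKLR1 had 1 AGGTCA, 94 bases before the start, a motif that 12.1% of all windows hold. FPR1 had 1 CCAAT box and the FPR2 windows 2 and 1, against 32.0% of all windows with at least 1, and a GC box was in 42.6% of all windows. Neither the AP-1 site (4.2% of windows), the M-box (5.75%) nor TATAAA (10.7%) was in any of the 5 windows. No matches overlap in these windows, and a match or its lack says only which letters are there. The RefSeq start of RARRES2 lies 45 bases from the gene's start in the count tables, while that of CMKLR1 lies 18699 bases inside the annotated gene, that of FPR1 52232 bases and those of FPR2 9154 and 11363 bases.

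The ligand, RARRES2, had 10, 13, 13 and 37 counts in A2058 WT replicates 1 to 4. The 1q-loss libraries had 5827 and 8445 counts in clone 1 and 6068 and 8820 in clone 2, so every loss library was far above every WT library. In CPM, WT stood at 0.808 ± 0.505 and 1q-loss at 325 ± 60.6 (SD, n = 4 and 4), 402-fold higher in the means (383-fold in pooled counts, 95% interval 304 to 488, which covers counting error only). WT replicate 4 was set apart at 1.56 CPM, and without it the WT mean was 0.556 CPM and the ratio 585. Per kilobase of transcript, RARRES2 in 1q-loss reached 169 CPM and ranked 156th of 19951 protein-coding genes.

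For the signalling receptor, CMKLR1, WT replicates 1 to 4 gave 5, 1, 6 and 2 counts. Counts in 1q-loss were 2441 and 2302 in clone 1 and 3555 and 4326 in clone 2. Mean levels were 0.164 ± 0.118 CPM in WT and 139 ± 29.2 CPM in 1q-loss (SD, n = 4 and 4), 864-fold in pooled counts (95% interval 515 to 1581). The receptor was thus present in the same clones as its ligand, at a level per length that was 5.06 to 10.9 times below that of RARRES2 in the 4 libraries. Clone 2 was above clone 1 for CMKLR1 (164 against 114 CPM), while RARRES2 did not follow that order (307 against 343 CPM).

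CCRL2, the non-signalling chemerin receptor, was low throughout A2058, with 0 to 2 counts in WT. Its counts in 1q-loss were 25 and 21 in clone 1 and 130 and 139 in clone 2, which is 1.10 and 5.65 CPM. The groups did not overlap, but the level in clone 1 stayed near 1 CPM, and per length CMKLR1 was 52.5 and 59.0 times above CCRL2 in clone 1 and 14.7 and 16.7 times in clone 2. The remaining chemerin receptor, GPR1, had 0 counts in every WT library and at most 1 in any 1q-loss library.

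Among the formyl peptide receptors, FPR2 had 0 counts in all 4 WT libraries. In 1q-loss it had 1085 and 1100 counts in clone 1 and 2076 and 3182 in clone 2, or 51.7, 53.2, 96.6 and 120 CPM. Against the limit that 3 counts per WT library would set, the mean of 80.4 ± 33.6 CPM was at least 583-fold higher. FPR1 had 0, 4, 0 and 0 counts in WT replicates 1 to 4, and 160, 308, 601 and 914 in the 1q-loss libraries. Its mean in 1q-loss was 21.2 ± 12.2 CPM (SD, n = 4), with 11.3 CPM in clone 1 and 31.2 CPM in clone 2. Per length FPR2 exceeded FPR1 4.75, 2.504, 2.42 and 2.44 times in the 4 libraries. FPR3, next to both on chromosome 19, had 0 counts in WT and 1, 0, 1 and 3 in 1q-loss, which is at or under the limit of 3 counts. So 2 of the 3 linked receptor genes were expressed in the 1q-loss clones and the third was at or under the limit of detection set here.

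**Figure D1:**
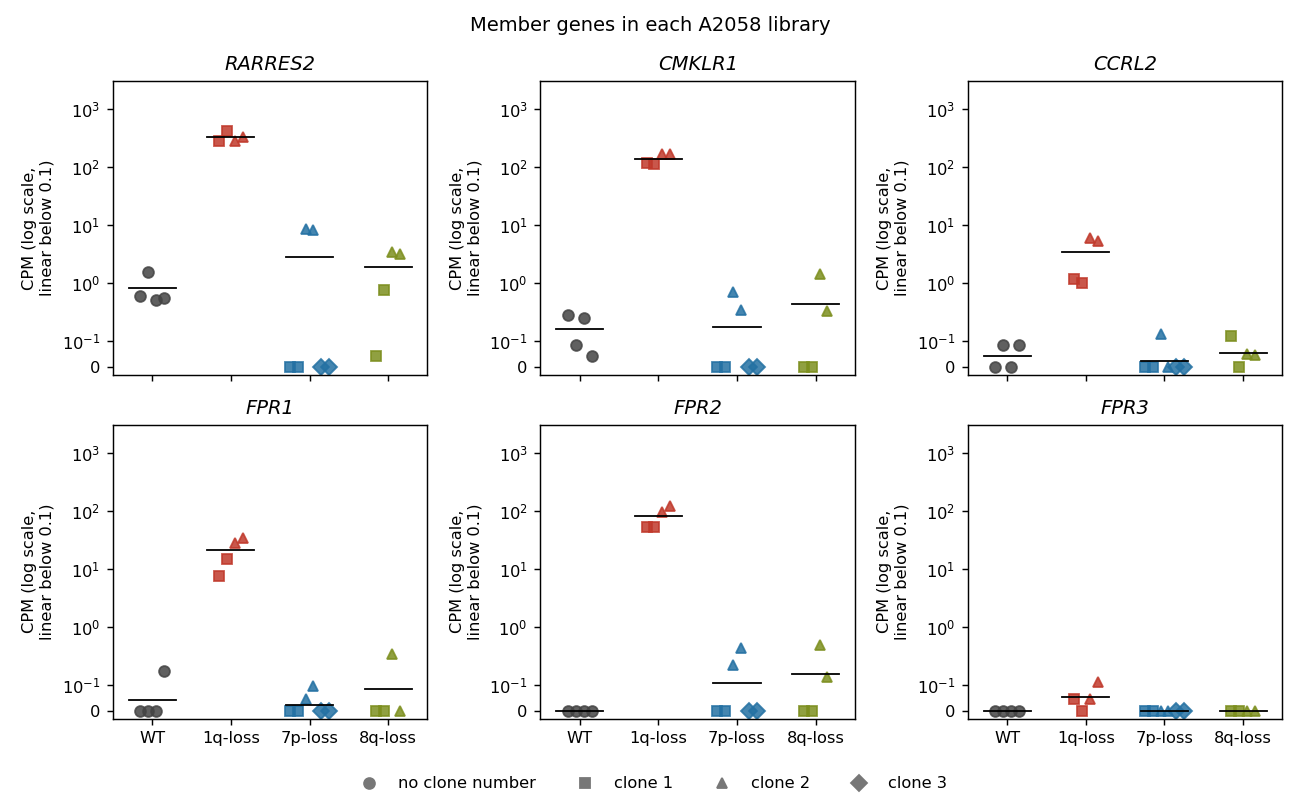
CPM of the 6 member genes in each of the 18 A2058 libraries (one point per library, shape for the clone, black line for the group mean; vertical axis logarithmic and linear below 0.1). RARRES2, CMKLR1, FPR1 and FPR2 in the 4 1q-loss libraries lie above all WT libraries, and in 7p-loss and 8q-loss the points above 0 for FPR2 and CMKLR1 belong to clone 2.

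Of the 6 members, 5 passed the filter on low counts in A2058 1q-loss against WT and FPR3 did not. CMKLR1, FPR2, FPR1 and CCRL2 passed it through the 1q-loss libraries alone, and how many members were called is not read here, since the choice of members fixes it. Of all tested genes, 49.6% were called in this comparison (edgeR quasi-likelihood).

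The other A2058 clones were compared with the same 4 WT libraries, so these comparisons share their controls. In 7p-loss, clones 1 and 3 had 0 counts of all 6 members in each of their 4 libraries. Clone 2 had 196 and 165 counts of RARRES2, 16 and 7 of CMKLR1, 5 and 9 of FPR2 and 1 and 2 of FPR1. The zero RARRES2 counts of clones 1 and 3 lie below the 10 or more seen in every WT library, and the 8.65 and 8.02 CPM of clone 2 lie above every WT library. RARRES2, the 1 member that could be tested, was not called (log2 fold change 1.77 with an SE of 1.61, adjusted p = 0.675 by edgeR, with 0.908% of tested genes called). Without clone 2 the direction turned (fitted log2 fold change -7.20, which depends on the prior count and is no bound), but every remaining 7p-loss library was at 0, so the gene passed the filter through WT alone and no test is read from that fit.

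In 8q-loss, clone 1 had 1 and 17 counts of RARRES2 and 0 of CMKLR1, FPR1 and FPR2. Clone 2 had 71 and 69 of RARRES2, 30 and 7 of CMKLR1, 10 and 3 of FPR2 and 7 and 0 of FPR1. RARRES2 was again the only member tested and was not called (log2 fold change 1.17 with an SE of 0.835, adjusted p = 0.610 by edgeR; 2.03% of tested genes called). It was called without clone 1 (log2 fold change 2.00, adjusted p = 0.0334) and its direction turned without clone 2 (-1.04, adjusted p = 0.536), and its alternatives gave an adjusted p of 0.0334 to 0.970. The 2 clones numbered 2 thus held low counts of RARRES2, CMKLR1, FPR1 and FPR2, which were high in 1q-loss. HAS1, a hyaluronan synthase gene beside the FPR genes, had 16 and 14 counts in 7p-loss clone 2 and 25 and 21 in 8q-loss clone 2, against 0 to 1 in the other 7p-loss and 8q-loss libraries. Not all genes that were higher in 1q-loss did so. COLEC10 had 3 and 2 counts in 7p-loss clone 2 and 0 and 0 in 8q-loss clone 2. CCRL2 had 1 and 1 in 8q-loss clone 2, against 3 and 0 in 8q-loss clone 1. CMKLR1 made up 5.99% (95% exact interval 3.83 to 8.85) of the summed RARRES2 and CMKLR1 counts in 7p-loss clone 2 and 20.9% (15.2 to 27.6) in 8q-loss clone 2, where the 2 libraries gave 29.7% and 9.21%. By library that share was 4.07 to 7.55% in 7p-loss clone 2, 5.13 to 33.3% in WT and 21.4 to 36.9% in 1q-loss. FPR2 made up 82.4% (56.6 to 96.2) of the summed FPR1 and FPR2 counts in 7p-loss clone 2 and 65.0% (40.8 to 84.6) in 8q-loss clone 2, against 82.4% and 77.6% in the 1q-loss clones. These last shares rest on 14 FPR2 and 3 FPR1 counts in 7p-loss clone 2 and on 13 and 7 in 8q-loss clone 2.

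The genes around the members were read in the same way, by a rule that takes the nearest protein-coding genes on either side. HAS1, whose midpoint lies 42.7 kb from that of FPR2, had 2, 0, 0 and 0 counts in the WT libraries. It had 635 and 1309 counts in 1q-loss clone 1 and 1386 and 2943 in clone 2, 3080-fold higher in pooled counts (95% counting interval 853 to 25500, resting on 2 counts in 1 WT library). On the other side of the receptor genes, the zinc finger genes ZNF577 (log2 fold change 0.94 with an SE of 0.214, adjusted p = 0.00429) and ZNF649 (0.63, SE 0.134, adjusted p = 0.00289) rose far less. SPACA6, beyond HAS1 on its own side, was not called (0.52, SE 0.224, adjusted p = 0.0795). HAS1, FPR1 and FPR2 were therefore high together, with FPR3 between them and the zinc finger genes near 0. Next to RARRES2, the WT libraries held 0 to 2 counts of LRRC61 and 0 of ZBED6CL, and those of 1q-loss 10 to 17 and 3 to 7. HAS1 and LRRC61 passed the filter through the 1q-loss libraries alone, so no test is given for them. REPIN1, on the other side, rose by 0.47 on the log2 scale (SE 0.066, adjusted p = 0.00019). Around CMKLR1, WSCD2 and ASCL4 had at most 1 count, and neither FICD (0.37, SE 0.238, adjusted p = 0.220) nor SART3 (-0.05, SE 0.069, adjusted p = 0.546) was called. Beside CCRL2, LTF had 0 counts in WT and in 1q-loss.

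**Figure D2:**
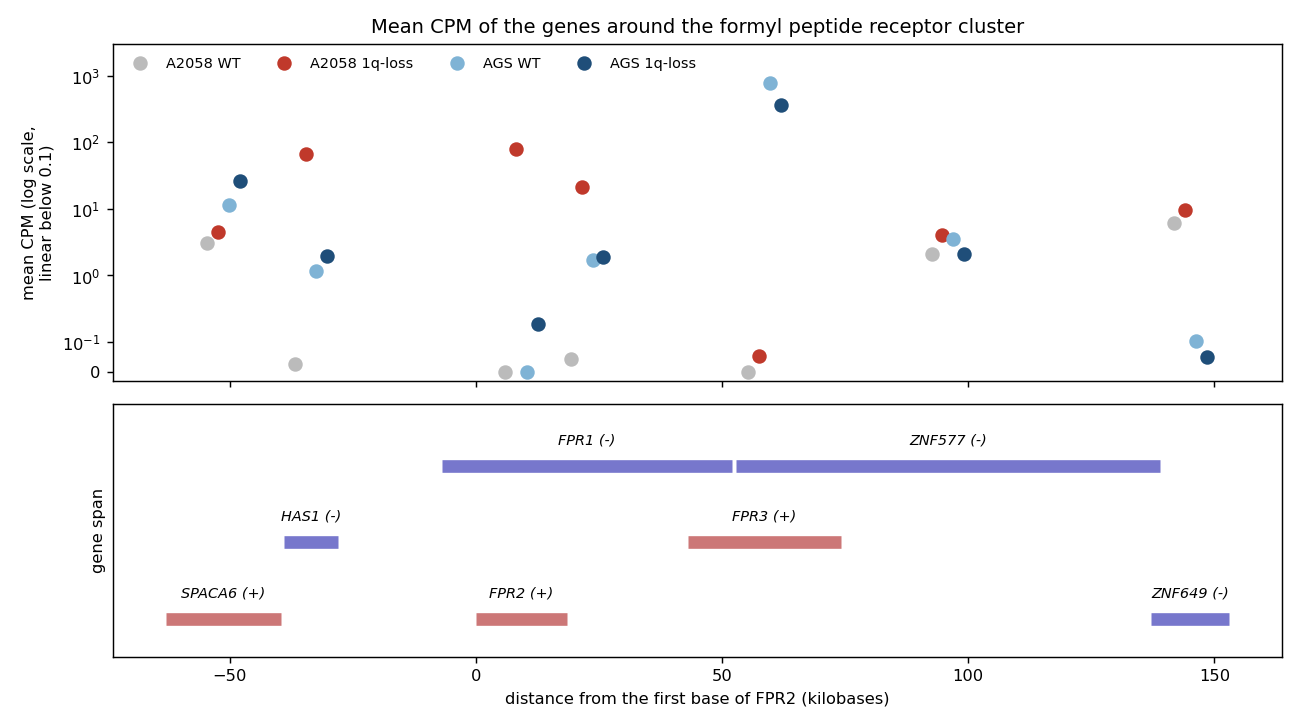
Mean CPM (upper panel, logarithmic axis, linear below 0.1) and span (lower panel, red for the plus and blue for the minus strand) of the genes around the formyl peptide receptors, by distance in kilobases from the first base of FPR2. In A2058 1q-loss HAS1 (67.2 CPM), FPR2 (80.4 CPM) and FPR1 (21.2 CPM) are high and FPR3 is near 0, while in AGS FPR3 (776 CPM in WT, 367 CPM in 1q-loss) stands far above the other genes shown.

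Chemerin is activated and inactivated by proteases, so 15 genes for its handling were listed. Of these, 6 could be tested in A2058 1q-loss, 1 rose and 3 fell (median log2 fold change -0.85, against -0.00057 over all tested genes; 25.3% of all tested genes rose and 24.3% fell). PLAU, which encodes urokinase, an activator of plasminogen, rose from 1.05 ± 0.599 to 19.04 ± 7.01 CPM (± is the SD over 4 libraries a group; log2 fold change 4.18 with an SE of 0.385, adjusted p = 9.86e-06). PLAT, the tissue-type plasminogen activator, fell from 207 ± 26.3 to 61.8 ± 13.9 CPM (log2 fold change -1.75 with an SE of 0.152, adjusted p = 6.69e-06). CTSK, which encodes cathepsin K, fell from 40.7 ± 9.99 to 12.7 ± 7.30 CPM, and CPN1, the catalytic chain of carboxypeptidase N, from 4.40 ± 0.580 to 0.335 ± 0.106 CPM. Cathepsins L and S (CTSL, log2 fold change -0.02, and CTSS, -0.0019) were not called. The 2 plasminogen activators thus moved in opposite directions. Some genes passed the filter through the group where they were high, which bears on their call and on the counts of their lists: RGS4, PECAM1, PAX8, SAA2, CSF1R and CYP26B1 had under 10 counts in every WT library, and CPN1, ADCYAP1 and LYZ in every 1q-loss library.

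Of 9 genes for ligands of the formyl peptide receptors, 7 were tested, 4 rose and 1 fell (71.4% called, against 49.6% of all tested genes; median log2 fold change 0.84). SAA1 and SAA2, the acute-phase serum amyloid A genes whose products act on FPR2, were among those that rose. SAA1 went from 1.69 ± 2.38 to 54.6 ± 29.7 CPM (adjusted p = 0.00019 by edgeR), 32.3-fold in the means and 110-fold without WT replicate 3, which held 114 counts against 10 to 13 in the other WT libraries. For SAA2 the WT libraries held 0 to 8 counts and those of 1q-loss 57 to 371. These 2 genes are near copies of each other, so how reads were split between them is uncertain. ANXA1, the gene of annexin A1, rose from 114 ± 40.1 to 353 ± 49.9 CPM (log2 fold change 1.63 with an SE of 0.213, adjusted p = 0.00011), and PRNP, the prion protein gene, from 376 ± 32.2 to 672 ± 36.98 CPM. ADCYAP1, the gene of the neuropeptide PACAP, held 11 to 16 counts in WT and 0 to 5 in 1q-loss. It is the 1 gene counted as fallen, it passed the filter through WT alone, and its call was lost with a replicate block. HEBP1 was not called (28.4 and 27.3 CPM).

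Downstream, the list of Gi signalling genes had 29 members, of which 25 were tested, 9 rose and 7 fell (64% called, against 49.6% of all tested genes; median log2 fold change 0.08). The inhibitory subunit genes were expressed in both groups, and GNAI2 rose from 329 ± 22.5 to 406 ± 21.1 CPM (log2 fold change 0.30 with an SE of 0.067, adjusted p = 0.00359). GNG11, a G gamma subunit, rose from 94.9 ± 9.17 to 278 ± 13.4 CPM (log2 fold change 1.55 with an SE of 0.077, adjusted p = 1.85e-07). GNAO1, a G alpha o subunit, rose by 2.38 on the log2 scale, and the RGS genes RGS4 and RGS2, which shorten G protein signals, by 2.21 and 1.02. The receptor kinase gene GRK5 fell from 21.7 ± 1.51 to 11.6 ± 1.22 CPM and ARRB2, the beta-arrestin 2 gene, from 43.8 ± 3.75 to 27.1 ± 3.78 CPM. Without clone 2, or with WT replicates 3 and 4 only, 4 genes of this list fell.

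RARRES2 was first described as a gene that responds to a retinoid, and 19 genes of retinoid handling and response were listed. Of 15 tested, 7 rose and 2 fell (60% called, against 49.6% of all tested genes; median log2 fold change 0.54). STRA6, which takes up retinol, rose from 0.806 ± 0.491 to 32.0 ± 5.36 CPM (log2 fold change 5.30 with an SE of 0.304, adjusted p = 4.36e-07), and TGM2, the transglutaminase 2 gene, from 114 ± 57.1 to 1373 ± 203 CPM. CYP26B1, which breaks down retinoic acid, went from 2 to 7 counts to 10 to 46 and was not called with a replicate block (adjusted p = 0.0608). RXRG, a retinoid X receptor gene, fell from 11.7 ± 3.94 to 1.55 ± 0.985 CPM. ALDH1A1, a retinaldehyde dehydrogenase gene, fell by 2.63. RARRES1, induced like RARRES2 by a retinoid, was not called (log2 fold change 0.54, adjusted p = 0.282), while RARRES3 rose by 1.58.

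Marker lists were read in the same contrast, where 49.6% of all tested genes were called, 25.3% higher and 24.3% lower. All 6 melanocyte markers fell in 1q-loss (median log2 fold change -4.33, 49.4 to 254 CPM summed), led by TYR (-8.22) and PMEL (-6.27). Of 15 leukocyte markers, 4 were tested, 2 rose (CSF1R by 4.03, FCER1G by 1.06) and 2 fell (LYZ and ITGAX), and the list summed to 5.81 to 32.0 CPM. TYROBP and FCGR3A, which mark myeloid and natural killer cells, were at 0 in all 1q-loss libraries. S100A8 and CSF3R had 6 to 544 and 3 to 176 counts in 1q-loss. The number of leukocyte markers that rose was 5 with no filter, 4 without WT replicate 1, 2 or 4, without clone 1 or without clone 1 replicate 1, and 1 without clone 2, without either of its libraries or with a replicate block. Of 12 adipocyte and stromal markers, 6 were tested and 4 rose, led by the endothelial gene PECAM1 (5.45) and including CDH5 (3.30), COL1A1 (3.27) and PDGFRA (0.91), while the adipocyte genes ADIPOQ and LEP were at 0. The list summed to 37.4 to 47.1 CPM in WT and 148 to 287 CPM in 1q-loss. Of 9 epithelial markers, 3 were tested. KRT8 (1.498) and KRT18 (0.99) rose, and PAX8, which was at 0 in WT, was also called higher. PAX8, CSF1R and PECAM1 passed the filter through 1q-loss alone and LYZ through WT alone. The filter thus bears on their calls and on these counts. FCER1G and PDGFRA lost their call in 12 of 17 and 11 of 18 alternatives (adjusted p up to 0.166 and 0.407). The part of these markers in the members' levels was not tested, and in cultures of 1 line more cells of a kind and more RNA per cell cannot be told apart.

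**Figure D3:**
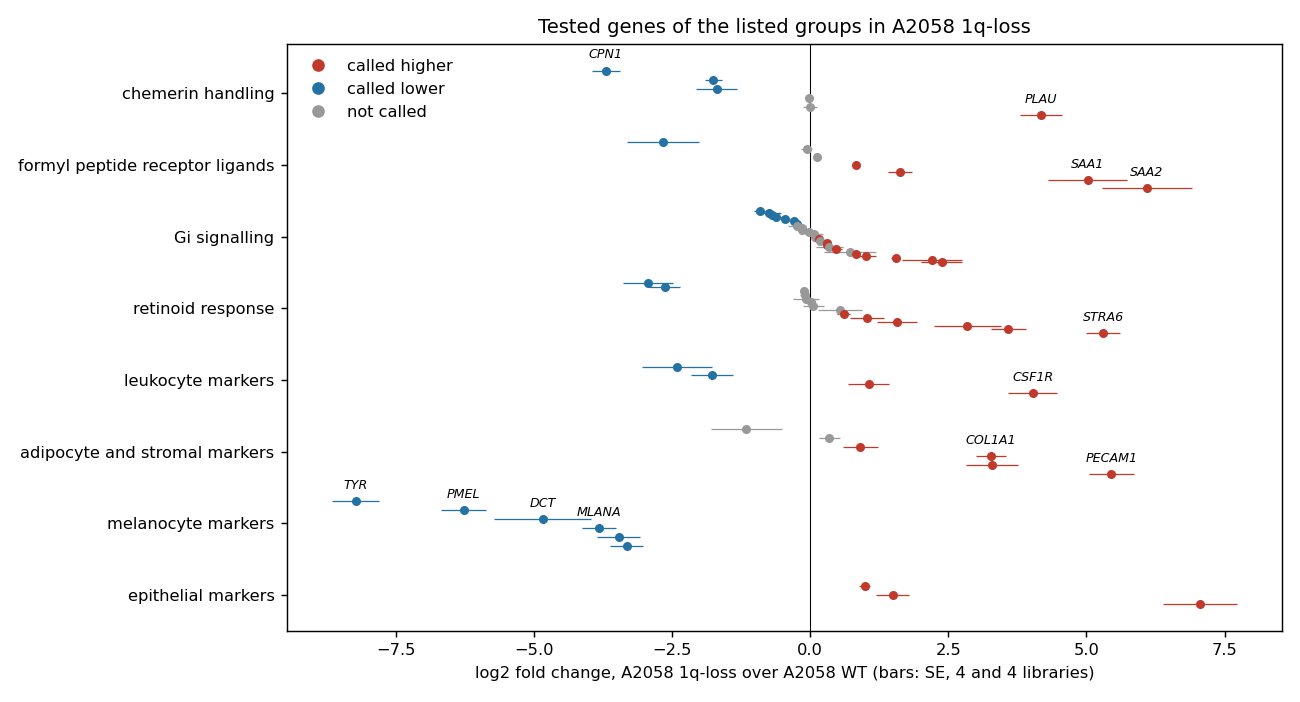
Log2 fold change of tested genes of the 8 lists in A2058 1q-loss over A2058 WT, 1 retinoid gene not shown (one point per gene, bars for the SE, red for called higher, blue for called lower, grey for not called). STRA6, SAA1, SAA2 and PLAU lie between 4.18 and 6.09, and the 6 melanocyte markers all lie below 0.

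In the comparisons outside A2058 the members were mostly near 0. HCT116 had 0 counts of CMKLR1, FPR1, FPR2 and FPR3 in all 6 libraries. RARRES2 there had 49 and 40 counts in WT and 66 and 6 in clone 1 and 35 and 31 in clone 2 of 8q-loss, and was not called (log2 fold change -0.45 with an SE of 0.807, adjusted p = 1.00 by edgeR). CCRL2 had 0 counts in both WT libraries and 14, 16, 12 and 0 in 8q-loss and passed the filter through 8q-loss alone, so no test is given for it. In this comparison 0.14% of tested genes were called.

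A2780 had traces. RARRES2 reached 5 and 7 counts in WT, 0 and 2 in TK+ and 0 to 14 in 1q-loss, and CCRL2 10 and 4, 1 and 0, and 2 to 15. CMKLR1 had at most 3 counts, FPR1 at most 3, FPR3 at most 1, and FPR2 was at 0. In MCF10A the only member above 4 counts was CCRL2, with 0 and 3 in WT, 0 to 14 in 1q-loss, 0 in both hRas WT libraries and 0 to 12 in hRas 1q-loss. CMKLR1, FPR2 and FPR3 were at 0 in all 20 MCF10A libraries, and 0 counts allow up to 3 counts per library, or 0.141 CPM in the 1q-loss group. No member passed the filter in the comparisons of A2780 1q-loss (11.8% of tested genes called), A2780 TK+ against WT (11.2%), MCF10A 1q-loss (2.04%), MCF10A hRas 1q-loss (0.214%), hRas WT against WT (1.62%) and hRas 1q-loss against 1q-loss (1.2%). In the interaction of 1q-loss with hRas 0% of tested genes were called by edgeR (366 of 16492 at an unadjusted p under 0.05, 1 called by DESeq2). CCRL2 passed the filter there through 1q-loss libraries alone, so no test is given for it. Across the 11 comparisons other than A2058 1q-loss, edgeR called 0 members, with 1 in HCT116 (CCRL2, which passed the filter through 8q-loss alone) and 1 in AGS at an unadjusted p under 0.05, and DESeq2 called 1, in AGS.

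**Figure D4:**
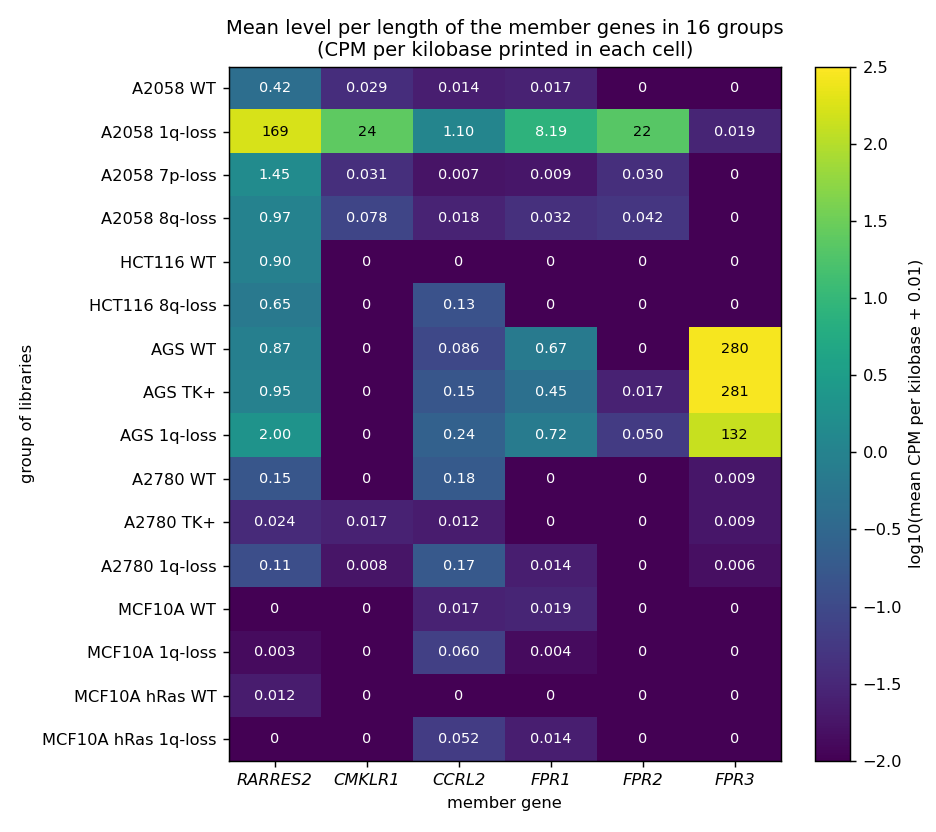
Mean CPM per kilobase of transcript of the 6 members (columns) in the 16 groups (rows), as colour on a log10 scale and as numbers. The row of A2058 1q-loss is high in RARRES2, CMKLR1, FPR1 and FPR2, and the 3 AGS rows are high in FPR3, with at most 0.0187 in the FPR3 column elsewhere.

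AGS cells showed the reverse receptor pattern. FPR3 was among their most abundant mRNAs, with 14780 counts in WT (776 CPM) and 12913 and 12295 in TK+ (832 and 727 CPM), which ranked it 90th and 83rd of 19951 protein-coding genes per length. FPR2 had 0 to 1 counts in those libraries and CMKLR1 had 0 in all 8 AGS libraries, while FPR1 had 33, 20 and 18. In the 1q-loss clones FPR3 had 4423 counts in clone 1, 826 in clone 4, 10411 in clone 6, 9373 in clone 7 and 4350 in clone 11, or 267, 47.1, 615, 617 and 289 CPM. Each loss clone was below each of the 3 control libraries, but the clones ranged from 47.1 to 617 CPM, and the change was not called (log2 fold change -1.08 with an SE of 0.601, adjusted p = 0.292 by edgeR and 0.164 to 0.453 in its alternatives; 7.55% of tested genes called). ZNF577, which overlaps FPR3 on the other strand with no shared exonic bases, had a log2 fold change of -0.99 and was not called either (adjusted p = 0.131).

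RARRES2 was low in AGS, with 32, 30 and 29 counts in the controls (1.68 to 1.93 CPM) and 54, 33, 77, 78 and 66 in clones 1, 4, 6, 7 and 11 (1.88 to 5.14 CPM). Clone 4 lay within the control range and the other clones above it. The increase of 1.12 on the log2 scale (SE 0.336) had an adjusted p of 0.0732 by edgeR, so it was not called. It was called by DESeq2 (adjusted p = 0.0200) and without clone 4 (log2 fold change 1.29, adjusted p = 0.0272), in a range of 0.0200 to 0.223. FPR1 (log2 fold change 0.46 with an SE of 0.357, adjusted p = 0.452) and CCRL2 (0.88, SE 0.499, adjusted p = 0.298) were not called. GPR1, the chemerin receptor that A2058 lacks, stood at 49.1 CPM in AGS WT, 38.6 ± 12.9 in TK+ and 29.9 ± 8.03 in 1q-loss (SD, n = 2 and 5; log2 fold change -0.49, adjusted p = 0.240).

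Calls in AGS depended on single libraries: 1131 genes were called in all, 97 without TK+ clone 2, 167 without WT, 246 without TK+ clone 1, 531 to 822 without loss clone 1, 4, 6 or 7 and 1773 without clone 11. Around these members in AGS 1q-loss, PLAT rose (log2 fold change 3.26 with an SE of 0.757, adjusted p = 0.0354) and no other of the 4 tested chemerin-handling genes was called, in a comparison where 7.55% of all tested genes were. Of 19 tested Gi signalling genes 1 rose (GNA15, 2.94) and 2 fell (GRK3, -1.01, and RGS16, -1.41), and 0 of 4 tested ligand genes and 0 of 8 tested retinoid genes were called by edgeR. Of 7 tested epithelial markers 3 rose, KRT8 (0.79), KRT19 (0.81) and KRT14 (2.67), with a median log2 fold change of 0.79 over the 7. Of these calls, GNA15 held in all 13 alternatives, and the others were lost without WT or without TK+ clone 1, among other settings (highest adjusted p 0.0817 for GRK3, 0.112 for RGS16, 0.145 for PLAT, 0.136 for KRT8, 0.182 for KRT19 and 0.0886 for KRT14). The leukocyte list summed to 87.3 to 1951 CPM in the AGS controls and 30.8 to 133 CPM in 1q-loss, nearly all of it LYZ, a lysozyme gene that gastric epithelium also expresses, which fell (log2 fold change -3.62 with an SE of 0.852, adjusted p = 0.0361, lost in 7 of 13 alternatives with an adjusted p up to 0.155). FCGR3A, CSF3R, S100A8 and CD3E were at 0 in all 8 AGS libraries. The part of these genes in the level of FPR3 was not tested.

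**Figure D5:**
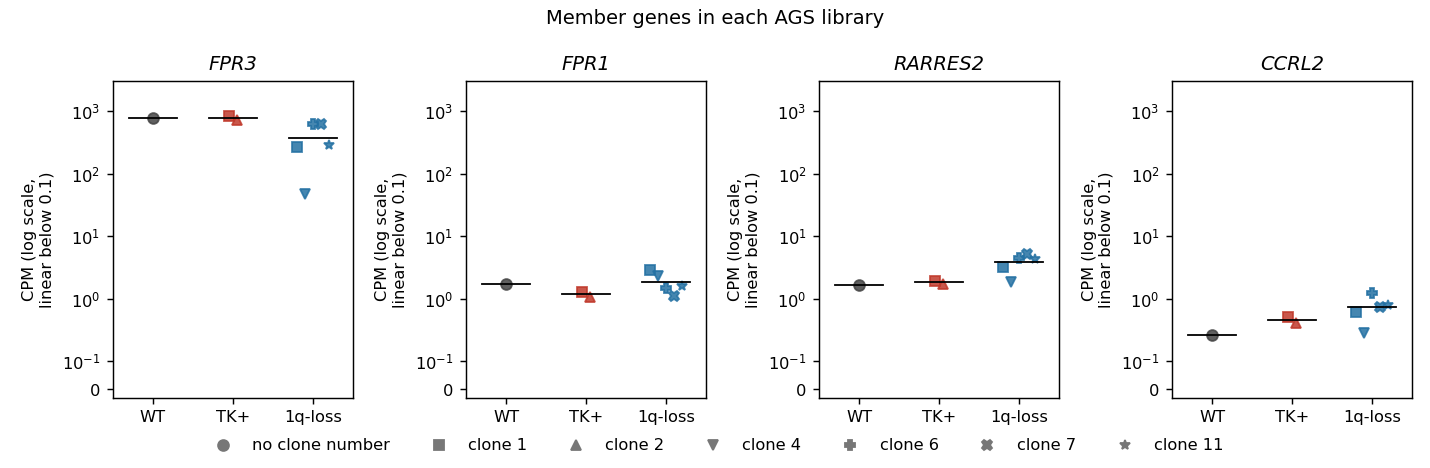
CPM of FPR3, FPR1, RARRES2 and CCRL2 in each of the 8 AGS libraries (one point per library, shape for the clone, black line for the group mean; vertical axis logarithmic and linear below 0.1). FPR3 lies at 727 to 832 CPM in the 3 WT and TK+ libraries and at 47.1 to 617 CPM in the 5 1q-loss clones, and the other genes stay at or below 5.14 CPM.

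Ordered by group mean, RARRES2 was highest in A2058 1q-loss, followed by AGS 1q-loss (3.84 ± 1.29 CPM), A2058 7p-loss (2.78 ± 4.31), A2058 8q-loss (1.85 ± 1.70), AGS TK+ (1.82 ± 0.155), HCT116 WT (1.72 ± 0.0421), AGS WT (1.68), HCT116 8q-loss (1.26 ± 0.959) and A2058 WT, and from AGS 1q-loss down to A2058 WT neighbours in this order did not differ beyond their spread. A2780 WT (0.281 ± 0.0494 CPM) came next and lay below all A2058 WT libraries. CMKLR1 and FPR2 exceeded 1 CPM only in the mean of A2058 1q-loss. FPR1 exceeded it in A2058 1q-loss and in the 3 AGS groups (1.18 to 1.87 CPM), and FPR3 only in AGS.

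Over the 16 group means, 14514 protein-coding genes were compared with each member by Pearson's r of log2 CPM. The points share lines and libraries, and a single high group can set r, so these values are descriptions. CMKLR1 was most like AGTR1 (r = 0.99), GBP4 and OBP2A, with 22 genes at r of 0.95 or more. Over the 62 libraries 3 genes reached 0.95, and C16orf54, FPR2 and OBP2A led. FPR2 was most like OBP2A (0.99), VCX2 and RTL3, with 15 genes at 0.95, and over libraries OBP2A, CMKLR1 and RTL3 led, with 3. CMKLR1 and FPR2 themselves correlated at 0.97, and RARRES2 and CMKLR1 at 0.80. These members were chosen for being high in A2058 1q-loss, so high values between them follow from that choice. RARRES2 had no gene at 0.95 and was most like CRISPLD2 (0.93) and ADGRG3. FPR1 was most like its neighbour HAS1 (0.97), ahead of COLEC10 and LGR6, and CCRL2 was most like HAS1 (0.84), FPR1 and COL1A1. FPR3 was most like C4BPB, PLA2G2E and EPS8L3 (r of 0.998 to 0.999), genes that were at 137, 16.8 and 106 CPM in AGS WT, and 133 genes reached 0.95 (43 over libraries).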

How the data were processed

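Gene expression was measured by poly(A) RNA-seq in 62 libraries of 5 cell lines. The deposited values are raw read counts per gene, made by the authors with HISAT2 2.0.5 and featureCounts 1.5.0-p3 on hg38, per the submitters' processing notes. The A2780 tables carry GRCh37 coordinates, and the annotation release and strand setting are not given in the sources used here. Groups were taken from the labels. Counts were filtered with edgeR's filterByExpr (minimum count 10, minimum total 15) and scaled by TMM. They were tested with edgeR 4.0.16 quasi-likelihood in R 4.3.3 (Benjamini-Hochberg over all tested genes), and these steps were tested on simulated data. The prior count was set to 2 for log2 CPM values only, and edgeR fold changes used the default of its fit. DESeq2 1.42.0, other filters and scalings, a replicate block, clones summed and each library or clone left out were the alternatives. Intervals are exact at 95% and, like the limit of 3 counts for a gene at 0, cover counting error only. Library totals of 15042068 to 30984036 counts set that limit. Members and lists were chosen with earlier results of these data known. Named list genes are at most 5 a list, those with the largest log2 fold change among called genes with a mean CPM of at least 1. Others (such as GNAI2, ARRB2, ADCYAP1, ALDH1A1, RARRES1, RARRES3, HEBP1 and PAX8) were chosen after their values were seen. For each member the 3 genes most like it and the 2 nearest on either side are named, except a few that are not reported here. The main fits did not pair samples by replicate number. Differences between replicates 1 and 2 correlated between clones or WT at r of up to 0.462 in A2058 8q-loss and 0.394 in A2058 7p-loss. With a replicate block, called genes fell from 308 to 39 and from 139 to 1 in these comparisons. They rose from 1669 to 2288 in A2780 TK+ against WT. Whether replicates shared an effect was not tested further.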

Additional observations from a re-analysis of the deposited data

Results flagged for a closer look

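RARRES2 in A2058 WT replicate 4 stood at 1.56 CPM (37 counts), far from the 0.507 to 0.600 CPM of the other 3 WT libraries, with a gap of 0.912 of the group's range. Of 20 group and member combinations with more than 10 counts this was the 1 that stood apart, and chance sets apart about 1 in 20 groups. Without this library the WT mean was 0.556 CPM and the ratio of 1q-loss to WT 585 in place of 402.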

How the results depend on the processing

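The number of members called went from 0 to 1 in A2058 7p-loss without clone 2, where the remaining loss libraries were all at 0 and the call is not read, in A2058 8q-loss without clone 1, and in AGS 1q-loss with DESeq2; over the AGS fits that leave out 1 library it ranged from 0 to 1. Of 137 member fold changes 131 kept direction and side of the threshold. RARRES2 reversed in A2058 7p-loss without clone 2 (-7.20) and in A2058 8q-loss without clone 2 (-1.04), and the cause was not tested. CCRL2 also reversed in the MCF10A interaction without MCF10A WT replicate 1 (-0.173, with alternatives up to 4.07). It had 0 to 3 counts in MCF10A WT and 0 in hRas WT, so its direction depends on the prior count and is not read. With plain library sizes FPR3 in AGS WT was 761 CPM in place of 776. With a replicate block the members called stayed at 0 in the 10 comparisons other than A2058 1q-loss that were fitted so. Of 572 fold changes of the list genes named by rule in A2058 1q-loss, 548 kept their call and 24 lost it (FCER1G, PDGFRA and CYP26B1). The genes at r of 0.95 or more fell from 22 to 3 for CMKLR1, from 15 to 3 for FPR2, from 133 to 43 for FPR3 and from 1 to 0 for FPR1 over libraries in place of group means. Adipocyte and stromal markers called lower went from 0 to 1 without A2058 1q-loss clone 2, and formyl peptide receptor ligands (ADCYAP1) from 1 to 0 with a mean CPM of at least 1 or the block. Depth limits all statements on genes under 3 counts.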
